A study of Mus musculus with 32 samples.

Results

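Subcutaneous (SC) tumors of the mesothelioma lines AB1 and AE17 were compared by RNA sequencing of whole tumors, with 8 AB1 SC tumors against 8 AE17 SC tumors out of the 32 tumors sequenced. The 16 tumors were chosen by their labels alone, as every tumor grown beneath the skin. AB1 was grown in BALB/c mice from 500000 cells and AE17 in C57BL/6 mice from 1000000 cells, both injected into the right flank. The methods give the mice as females aged 8 to 10 weeks, and all tumors were taken on day 10. Neither group carried a transgene or received a drug. Each group rests on 1 cell line in its matched strain, so line, strain, cell dose and sequencing lane differ together and cannot be told apart. All 8 AE17 SC libraries ran on lane 1, 6 AB1 SC libraries ran on lane 2 and 2 on lane 3. The other 16 tumors, AB1 and AE17 grown in the pleural cavity (IPL), were used to ask whether a line difference was the same at that site and in fits of all 32 tumors. A whole tumor holds cancer cells and host cells, and in such RNA fewer cells of a type cannot be told from less RNA per cell.

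Malignant mesothelioma arises from the lining cells of body cavities, and it is known in patients for loss of the CDKN2A and BAP1 tumor suppressors rather than for activating mutations. AB1 and AE17 are lines made from asbestos-induced tumors of the respective strains. Interferons, whose response genes are described at length, act through 2 related routes. Type I interferons drive antiviral genes through a protein complex that binds the interferon-stimulated response element (ISRE), and interferon-gamma, made by T cells and NK cells, acts through the gamma-activated sequence (GAS) and also induces IRF1, which binds ISRE-like sites. Growth factor receptors, Wnt ligands, Hox genes and matrix genes, also described, mark the tissue identity and the signaling of tumor and stromal cells.

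The total counts per tumor ranged from 15432258 to 19235665 in AB1 SC and from 16013042 to 17740547 in AE17 SC, so that 3 counts, taken as the detection floor, equal 0.156 to 0.194 counts per 1000000 counts (CPM). This floor covers counting error only. Levels are CPM scaled by the TMM method, not per length, so levels are compared between groups and not between genes. Log2 fold changes are AB1 SC minus AE17 SC with their SE, so a positive value is higher in AB1 SC, and each adjusted p is from edgeR's quasi-likelihood test with Benjamini-Hochberg adjustment over all genes tested. Each library is the tumor of 1 mouse. Among mice of a group, Pearson's r of log2 CPM across genes was 0.976 to 0.990 in AB1 SC and 0.947 to 0.992 in AE17 SC, against 0.872 to 0.897 between groups.

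Both lines are named mesothelioma, and several defining markers of mesothelium were low in both groups. Wt1, the mesothelial transcription factor, ranged from 0.348 to 2.45 CPM in AB1 SC and from 0 to 0.292 CPM in AE17 SC, so that it was above the floor in every AB1 SC tumor. Calb2, the calcium-binding protein calretinin, ranged from 0.473 to 1.13 CPM in AB1 SC and from 0 to 0.0617 CPM in AE17 SC, with 110 against 3 counts (ratio 34.7, 95% counting interval 11.6 to 171). Upk3b and Lrrn4 were at or near the floor in both groups, Upk3b at up to 0.0580 and 0.0602 CPM and Lrrn4 at up to 0.158 and 0.191 CPM. Krt7 stood at up to 0.754 and 1.07 CPM in AB1 SC and AE17 SC. Of 11 mesothelial lineage genes with values 3 passed the low-count filter, of which 2 were higher in AE17 SC. The third, not reported here by name, was not called (log2 fold change -0.59). The summed level of the 11 had a median of 108 CPM in AB1 SC and of 203 CPM in AE17 SC. Podoplanin (Pdpn), a surface glycoprotein that lymphatic vessels and fibroblasts also make, was present in both, at 86.2 ± 9.22 CPM in AB1 SC and 161 ± 22.4 CPM in AE17 SC (mean ± SD, n = 8). Bnc1, a transcription factor of mesothelium and squamous epithelium, was 0.684 ± 0.436 CPM in AB1 SC and 5.62 ± 2.21 CPM in AE17 SC (log2 fold change -3.03 ± 0.34).

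Both groups were stated to be female mice, yet the groups differed in Xist and shared Y-linked transcripts. Xist (chrX:103460366-103483254, minus strand, GRCm38), the RNA that coats the inactive X of female cells, had 4 to 65 counts per AB1 SC tumor (median 6) and 4607 to 25542 counts per AE17 SC tumor (median 15674.5). The groups did not overlap (log2 fold change -10.26 ± 0.63). Xist passed the low-count filter through AE17 SC alone and was bound to differ, so no adjusted p is given. The 8 AB1 IPL tumors had 1 to 9 counts of Xist and the 8 AE17 IPL tumors 16203 to 34991. The Y-linked genes Ddx3y, Uty, Kdm5d and Eif2s3y were detected in all 16 SC tumors. Ddx3y, an RNA helicase, ranged from 16.7 to 38 CPM in AB1 SC (median 27.4) and from 17.1 to 36.6 CPM in AE17 SC (median 28.3), with overlap. None of the 4 Y-linked genes passed the test (adjusted p between 0.350 and 0.677 by edgeR). Where these transcripts came from was not tested.

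On the second principal component AE17 SC mice 6 and 8 lay at one end (33.8 and 40.5) and AE17 SC mouse 1 at the other (-52.2), with the other 5 between -25.9 and 11. This component held 7.75% of the variance against 72.6% for the first, on which the lines separated. Mice 6 and 8 had the fewest counts of Xist in their group, 5000 and 4607. The groups were also compared without mice 6 and 8 together, and without each mouse in turn. AE17 SC mouse 6 also held the most RNA of 7 of the 10 leading AB1 genes among AE17 SC mice, for example 3.88 CPM of Cdhr5 against a median of 0.185 CPM in the other 7. That mouse's level of these 7 genes was 0.604% to 2.42% of the AB1 SC median. AB1 SC mouse 3 held the 65 counts of Xist. The origin of these small amounts was not tested.

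Of 14718 genes tested, 9370 differed at an adjusted p under 0.05 (63.7%), of which 4587 were higher in AB1 SC (31.2%) and 4783 in AE17 SC (32.5%). Of these, 2606 differed at least 2-fold (17.7%), 1137 higher in AB1 SC (7.73%) and 1469 in AE17 SC (9.98%). The 2 groups of mice did not overlap at all for 31.4% of genes. Line differences were thus the rule, and counts of list members below are read against these shares. Without AE17 SC mice 6 and 8 the counts were 9724 and 2755, and without AE17 SC mouse 1 they were 9444 and 2702. Lane could be added as a covariate only in a fit of all 32 tumors, in which the lane effect is estimated from AB1 SC and AE17 IPL, the groups split over lanes. There, 5268 genes passed, 2418 higher in AB1 SC and 2850 in AE17 SC. Of the 9370 genes, 9269 kept their direction and 4876 were again called. Of the 2606 genes, 2597 kept their direction and 2146 were called.

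Among the 10 protein-coding genes furthest above AB1 SC in AE17 SC, Rgs17, a regulator of G protein signaling, was found in AB1 SC by 1 count in all, and ranged from 22.2 to 50.3 CPM in AE17 SC (median 40.2), a ratio of 5514 with a 95% counting interval of 989 to 217828. Cftr, the chloride channel mutated in cystic fibrosis, ranged from 0 to 0.177 CPM in AB1 SC and from 38.2 to 108 CPM in AE17 SC (median 75.5, log2 fold change -10.33 ± 0.37). Zic2, a zinc finger factor of the neural tube, had no count in AB1 SC and 9.02 to 13 CPM in AE17 SC, at least 525-fold higher by the floor of 3 counts over the group.

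Its neighbor Zic5 had 2 counts in AB1 SC against 8.46 to 12.7 CPM, a ratio of 767 (95% counting interval 212 to 6337), and Dlx2, a homeobox factor of forebrain and jaw, had none against 3.16 to 8.71 CPM (at least 246-fold). The heart factor Tbx20 ranged from 0 to 0.237 CPM in AB1 SC and from 15.1 to 53.7 CPM in AE17 SC. Notum, an enzyme that removes the lipid of Wnt proteins, had 1 count in AB1 SC and 7.45 to 30.4 CPM in AE17 SC (ratio 1824, 95% counting interval 327 to 72094). Rflna, Bpifb4 and the adhesion molecule Cntnap4 completed the 10, with 0, 0 and 2 counts in the 8 AB1 SC tumors. The 10 were chosen as groups that do not overlap, so their separation is the rule's own. A gene at or near the floor in 1 group passed the low-count filter through the other group alone and was bound to differ, and its adjusted p is not given as support.

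Among the 10 genes furthest in the other direction, Cdhr5, a cadherin of the intestinal brush border, ranged from 596 to 691 CPM in AB1 SC (median 642) and from 0.120 to 3.88 CPM in AE17 SC (log2 fold change 9.73 ± 0.46). Baiap2l1, which shapes membranes by bundling actin, ranged from 947 to 1153 CPM and from 2.06 to 19.2 CPM. Stmn2, a tubulin-binding protein of growing neurons, reached 330 CPM in AB1 SC (median 271) and ranged from 0.481 to 3.28 CPM in AE17 SC (median 1.11).

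Sycp1, a meiotic chromosome protein, was counted only in AB1 SC, at 2.54 to 6.41 CPM, at least 223-fold higher. It was the only one of these 10 genes to lose its call with lane as a covariate (adjusted p = 1.00). Ifi44l, an interferon-induced gene, ranged from 27.4 to 68.4 CPM in AB1 SC and reached 0.537 CPM in AE17 SC. The heparan sulfate enzyme Ndst4, the synaptic Unc13c, the histidine-degrading enzyme Hal, Tcp11x2 and Hoxd11 completed the 10, with medians of 11.6 to 34.7 CPM in AB1 SC and of 0 to 0.215 CPM in AE17 SC.

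**Figure D1:**
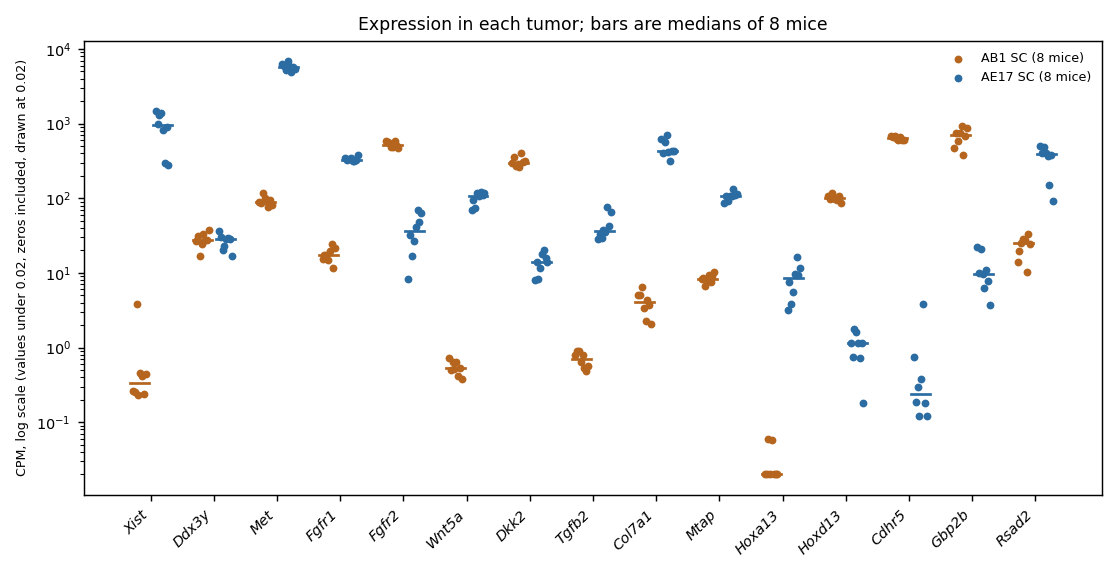
Level of 15 genes in each SC tumor (points, CPM on a log axis, values under 0.02 drawn at 0.02; bars, medians of 8 mice), AB1 SC in brown and AE17 SC in blue. Ddx3y overlaps, while Met spans 75.3 to 116 CPM in AB1 SC and 4926 to 6821 CPM in AE17 SC, and AE17 SC mice 6 and 8 lie low for Xist and Rsad2.

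Met (chr6:17463800-17573980, plus strand), the receptor of hepatocyte growth factor, ranged from 75.3 to 116 CPM in AB1 SC (median 90.4) and from 4926 to 6821 CPM in AE17 SC (median 5807). The groups did not overlap, and the fitted levels differed 62.8-fold (log2 fold change -5.97 ± 0.10, adjusted p = 5.07e-17). The fibroblast growth factor receptors went opposite ways. Fgfr1 ranged from 11.6 to 24.2 CPM in AB1 SC (median 17.3) and from 317 to 384 CPM in AE17 SC (median 329), a log2 fold change of -4.24 ± 0.12 (adjusted p = 9.90e-15). Fgfr2 ranged from 476 to 586 CPM in AB1 SC (median 520) and from 8.29 to 68.6 CPM in AE17 SC (median 36.3), a log2 fold change of 3.79 ± 0.33 (adjusted p = 2.92e-08).

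Among the ligands, the EGF receptor ligands Tgfa and Areg were higher in AE17 SC. Tgfa ranged from 0.0599 to 0.822 CPM in AB1 SC and from 3.69 to 23.1 CPM in AE17 SC, and Areg from 1.13 to 2.67 CPM and from 14.4 to 21.8 CPM. Vegfc, a growth factor of lymphatic vessels, ranged from 1.21 to 3.02 CPM and from 7.13 to 15.8 CPM. Of 28 growth factor receptors and ligands, all of them tested, 6 were higher in AB1 SC and 16 in AE17 SC. Their median log2 fold change was -0.79, against -0.0027 for all genes tested.

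Of 26 Wnt ligands, inhibitors and targets with values 15 passed the low-count filter, and 2 of them were higher in AB1 SC and 13 in AE17 SC, with a median of -2.75 (2 and 8 with lane as a covariate). A gene that passed this filter through its higher group alone was bound to differ, as for Wnt5b, Wnt2 and Lgr5 below, so these counts are no evidence of direction. Among members with at least 10 counts in every mouse the median was -0.67. Wnt5a, a ligand of the planar polarity branch, ranged from 0.377 to 0.735 CPM in AB1 SC (median 0.530) and from 69.3 to 123 CPM in AE17 SC (median 109; log2 fold change -7.51 ± 0.17).

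Wnt5b, Wnt11 and Wnt2 had medians of 0.117, 0.235 and 0.234 CPM in AB1 SC and of 5.25, 5.63 and 8.40 CPM in AE17 SC, with no overlap. Lgr5, a receptor for R-spondins and a Wnt target of stem cells, ranged from 0 to 0.120 CPM and from 1.28 to 13 CPM. Dkk2, a secreted Wnt antagonist, went the other way, from 259 to 399 CPM in AB1 SC (median 300) and from 8.12 to 20.2 CPM in AE17 SC (median 14; log2 fold change 4.50 ± 0.18, adjusted p = 1.34e-12). Dkk3 was the other member higher in AB1 SC, at 40.3 ± 4.56 against 9.19 ± 1.85 CPM (mean ± SD, n = 8 per group), and was named after its value was seen.

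Hox genes, homeobox factors that record position along the body, are grouped in 4 clusters. Of 33 tested, 15 were higher in AB1 SC and 16 in AE17 SC, or 9 and 14 with lane as a covariate. All 7 tested Hoxd genes and 7 of 8 Hoxb genes were higher in AB1 SC, while 9 of 11 Hoxa genes and 6 of 7 Hoxc genes were higher in AE17 SC. The cluster medians were 2.48 for Hoxd, 0.51 for Hoxb, -0.72 for Hoxa and -0.75 for Hoxc. Members such as Hoxa13, Hoxb13 and Hoxd11 passed the low-count filter through their higher group alone and were bound to differ, so these counts and medians are no evidence of direction. Among Hox genes with at least 10 counts in every mouse the median of all clusters was -0.46, against -0.24 over the 33. The genes of a cluster are neighbors and are not independent of each other.

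Posterior members were among those that differed. Hoxd13 (chr2:74668310-74671599, plus strand), a factor of digits and genital tract, ranged from 85.5 to 119 CPM in AB1 SC (median 99.9). In AE17 SC it ranged from 0.181 to 1.79 CPM (median 1.14, log2 fold change 6.57 ± 0.21). It passed the low-count filter through AB1 SC alone, so no adjusted p is given. Hoxd11 stood at a median of 24.2 CPM against 0.118 CPM, Hoxd10 at 20.9 against 0.926 CPM and Hoxd9 at 26.7 against 4.24 CPM, with no overlap. With lane as a covariate Hoxd10 missed the threshold (adjusted p = 0.0503).

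Hoxa13 had 2 counts in all AB1 SC tumors and ranged from 3.21 to 16.4 CPM in AE17 SC (ratio 587, 95% counting interval 162 to 4857). Hoxb13 had 1 count in AB1 SC and 1.25 to 2.54 CPM in AE17 SC (ratio 272, interval 48.3 to 10776), opposite to the 7 other tested genes of its cluster. Hoxc11 ranged from 0.116 to 0.473 CPM in AB1 SC and from 6.57 to 8.76 CPM in AE17 SC.

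**Figure D2:**
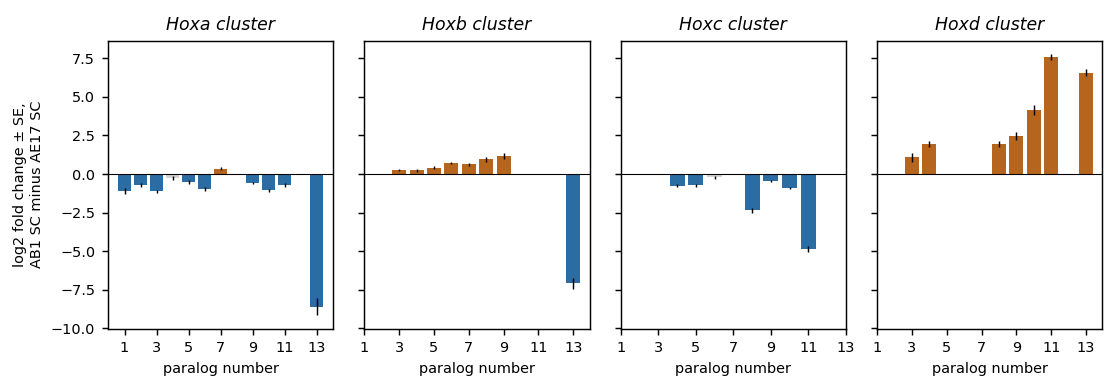
Log2 fold change of each tested Hox gene (bars, AB1 SC minus AE17 SC; whiskers, SE; brown and blue, adjusted p under 0.05; grey, not), by cluster and paralog number. Hoxd genes are all above 0 and reach 7.57 at Hoxd11, while Hoxc11 falls to -4.86. The fitted bars of Hoxa13 and Hoxb13, with 2 counts and 1 count in AB1 SC, depend on the prior count. So does that of Hoxd11, at up to 0.255 CPM in AE17 SC.

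Of 20 collagen genes tested, 1 was higher in AB1 SC and 14 in AE17 SC, with a median of -0.58, and with lane as a covariate the counts were 0 and 8. Col7a1, the anchoring fibril collagen of epithelial basement membrane, ranged from 2.07 to 6.39 CPM in AB1 SC (median 4.06) and from 314 to 700 CPM in AE17 SC (median 430; log2 fold change -6.90 ± 0.25, adjusted p = 3.07e-13). Col12a1 and Col11a1, fibril-associated and minor fibrillar collagens, had medians of 69.1 and 10.4 CPM in AB1 SC and of 1167 and 130 CPM in AE17 SC. Col1a1, the main collagen of connective tissue, ranged from 808 to 1160 CPM and from 4484 to 6922 CPM. The single collagen higher in AB1 SC, Col4a2 of basement membranes, differed by 0.22 ± 0.08 on the log2 scale, and lost its call with lane as a covariate (adjusted p = 0.675) and with 1 lane of AB1 SC (adjusted p = 0.0874).

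Of 16 matrix proteases and inhibitors tested, 2 were higher in AB1 SC and 12 in AE17 SC (median -1.04). Mmp13, a collagenase, ranged from 2.69 to 7.51 CPM in AB1 SC and from 23.7 to 126 CPM in AE17 SC. The gelatinases went opposite ways, with Mmp2 at 81.7 against 590 CPM and Mmp9 at 90.3 against 33.1 CPM in median, without overlap in either case. Adamts1 was the other protease higher in AB1 SC (96.1 ± 29.5 against 67.7 ± 14.9 CPM), a call that was lost with lane as a covariate (adjusted p = 0.332).

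Of 20 matricellular and integrin genes tested, 1 was higher in AB1 SC and 14 in AE17 SC (median -1.02). Itga11, a collagen receptor of activated fibroblasts, ranged from 0.778 to 2.37 CPM in AB1 SC and from 37.7 to 88.5 CPM in AE17 SC, and the collagen cross-linking enzyme Loxl2 from 11.3 to 23.7 and from 232 to 684 CPM. Periostin (Postn) and tenascin C (Tnc) had medians of 175 and 149 CPM in AB1 SC and of 1853 and 1380 CPM in AE17 SC. Osteopontin (Spp1), which macrophages and tumor cells secrete, was the member higher in AB1 SC, at 1659 to 2457 CPM against 835 to 1153 CPM.

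Stromal markers moved with the matrix genes. Of 10 pericyte and fibroblast markers, 1 was higher in AB1 SC and 7 in AE17 SC, and their summed level ranged from 522 to 852 CPM in AB1 SC and from 927 to 1996 CPM in AE17 SC. Cspg4, a proteoglycan of pericytes, ranged from 2.70 to 6.80 CPM and from 22.5 to 292 CPM. Of 13 endothelial markers tested, none was higher in AB1 SC and 8 were higher in AE17 SC at a median of -0.44, and their summed level was 236 to 302 CPM against 309 to 368 CPM. Pecam1, an adhesion molecule of endothelium, did not pass (64.2 ± 8.20 against 56.9 ± 6.12 CPM, adjusted p = 0.0710 by edgeR), while the factor Erg did (log2 fold change -1.74 ± 0.25, adjusted p = 9.64e-06). Calls with lane as a covariate were 0 and 4 for the pericyte and fibroblast markers and 0 and 5 for the endothelial markers. The part of host stroma in the matrix values was not tested.

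Type I interferon response genes and interferon-gamma induced GTPases lay on opposite sides. Of 22 type I interferon response genes, all tested, 1 was higher in AB1 SC and 18 were higher in AE17 SC, with a median log2 fold change of -1.31. Of 18 interferon-gamma induced GTPases, all tested, 16 were higher in AB1 SC and none in AE17 SC, with a median of 0.78. Without AE17 SC mice 6 and 8 the counts were 1 and 20 for the first list and 16 and 0 for the second. With lane as a covariate they fell to 0 and 12, and to 6 and 0, with medians of -0.97 and 0.90. The lists overlap in their control, since some members respond to both interferons.

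The regulatory sequences of the 2 members of each list with the largest called difference and an entry in the RefSeq promoter table are shown, since ISRE and GAS are the sites through which the lists are known to be driven. They are the 250 bases before the annotated start on GRCm38.p6, 5′ to 3′ on the gene's strand, and capitals mark each match to ISRE, searched on both strands as GAAA, 2 bases of any kind and GAAA.
Rsad2 (chr12:26456453-26456702, minus strand): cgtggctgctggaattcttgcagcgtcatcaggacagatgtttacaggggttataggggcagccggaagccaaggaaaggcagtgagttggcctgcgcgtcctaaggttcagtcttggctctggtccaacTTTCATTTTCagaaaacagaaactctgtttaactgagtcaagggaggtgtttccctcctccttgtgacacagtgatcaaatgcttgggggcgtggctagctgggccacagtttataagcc
Ifit3b (chr19:34607707-34607956, plus strand): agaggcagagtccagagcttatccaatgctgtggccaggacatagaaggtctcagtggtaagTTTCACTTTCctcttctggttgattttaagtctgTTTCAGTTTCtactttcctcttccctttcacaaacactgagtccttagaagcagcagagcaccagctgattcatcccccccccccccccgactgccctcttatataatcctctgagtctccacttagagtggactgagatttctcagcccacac
Gbp2b (chr3:142594597-142594846, plus strand): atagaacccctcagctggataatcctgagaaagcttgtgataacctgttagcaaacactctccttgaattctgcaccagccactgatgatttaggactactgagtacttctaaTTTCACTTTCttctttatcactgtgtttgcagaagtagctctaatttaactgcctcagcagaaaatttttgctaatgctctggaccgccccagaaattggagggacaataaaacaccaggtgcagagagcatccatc
Gbp5 (chr3:142496684-142496933, plus strand): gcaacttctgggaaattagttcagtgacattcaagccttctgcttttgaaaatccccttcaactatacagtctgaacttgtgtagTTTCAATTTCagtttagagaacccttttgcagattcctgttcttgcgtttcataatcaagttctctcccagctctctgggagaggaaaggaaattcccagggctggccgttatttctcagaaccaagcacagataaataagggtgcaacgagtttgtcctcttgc

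In these windows the ISRE match began 120 bases before the start in Rsad2, 188 and 154 bases in Ifit3b, 137 bases in Gbp2b and 165 bases in Gbp5. GAS, searched as TTCNNNGAA, which reads the same on both strands, was found in Gbp5 at 245 and 52 bases before the start, apart from its ISRE, and in none of the other 3 windows. Of the type I list, 15 genes had an entry, of which 7 held the ISRE letters and 2 the GAS letters. Of the GTPase list 11 had an entry, with ISRE in 10 and GAS in 6. Over all 27025 genes of the promoter table, 3.04% held ISRE and 7.18% held GAS in the same window. A match is a run of letters and not a measured binding site.

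Rsad2, which encodes the antiviral enzyme viperin, ranged from 10.2 to 32.9 CPM in AB1 SC (median 25) and from 92.3 to 499 CPM in AE17 SC (median 389). The groups did not overlap, with AE17 SC mice 8 and 6 lowest in their group (log2 fold change -3.93 ± 0.35, adjusted p = 3.36e-08). Ifit1 and Ifit3, which bind viral RNA, had medians of 43.1 and 62.5 CPM in AB1 SC and of 221 and 431 CPM in AE17 SC. Ifit3b followed Ifit3 closely (log2 fold changes -2.69 and -2.65), and the 2 are near-identical copies that may share reads. The antiviral GTPase Mx1 and the 2′-5′ oligoadenylate synthetase relative Oasl1 had medians of 34.8 and 29.4 CPM against 174 and 136 CPM.

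Among the GTPases, which attack the membranes of vacuoles holding microbes, Gbp2b went furthest. Gbp2b (chr3:142594847-142619179, plus strand) ranged from 382 to 943 CPM in AB1 SC (median 706) and from 3.75 to 22.5 CPM in AE17 SC (median 9.78; log2 fold change 5.87 ± 0.35, adjusted p = 2.43e-10). Gbp11 was the other member without overlap, at 56.7 to 146 CPM against 19 to 48.1 CPM. Gbp4, Gbp5, Gbp10 and Gbp8 overlapped between groups and differed by 1.14, 1.02, 0.95 and 0.89 on the log2 scale. With lane as a covariate Gbp10 and Gbp8 did not pass (adjusted p = 0.0588 and 0.0883). The Gbp genes are a family of close copies, so reads may be split among them.

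The chemokines of this axis were divided. Cxcl9, which draws T cells and is chiefly driven by interferon-gamma, ranged from 309 to 885 CPM in AB1 SC (median 628) and from 23.1 to 262 CPM in AE17 SC (median 99.9; log2 fold change 2.29 ± 0.38, adjusted p = 5.48e-05). Cxcl11 ranged from 18 to 49.8 CPM and from 4.18 to 11.7 CPM. Cxcl10, a ligand of the same receptor that type I interferon also induces, was higher in AE17 SC, at 161 ± 50.9 against 332 ± 103 CPM (log2 fold change -1.04 ± 0.23, adjusted p = 7.83e-04), a call that was lost with lane as a covariate (adjusted p = 0.0981).

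**Figure D3:**
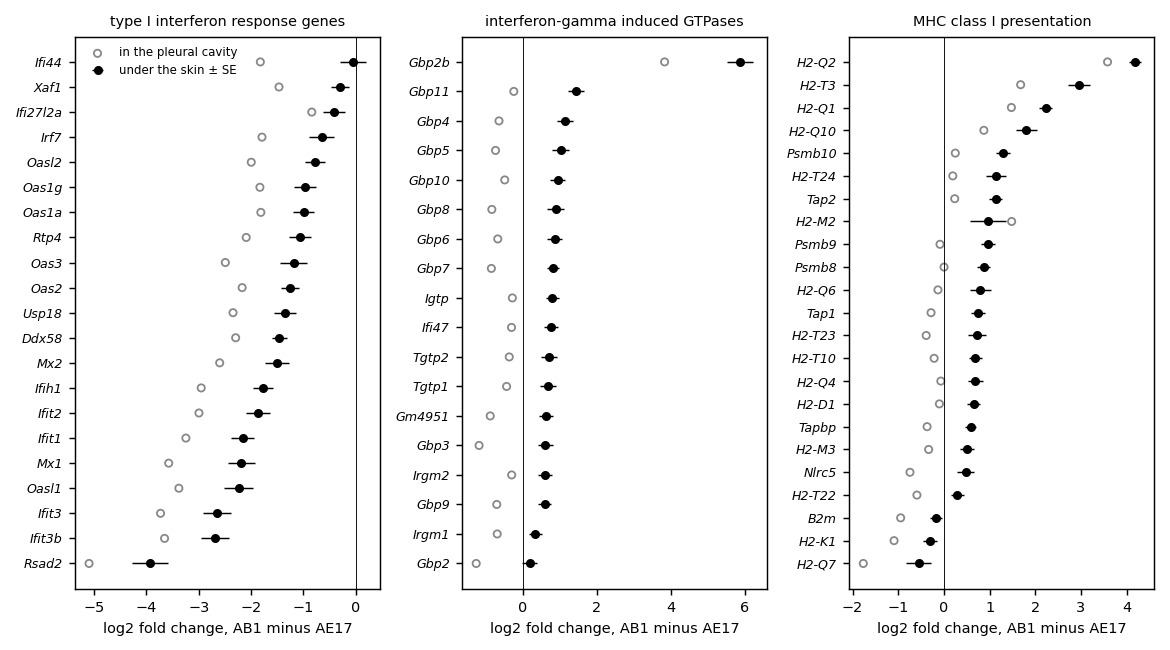
Log2 fold change of AB1 minus AE17 for the members of 3 lists (all but 1 of the type I list), in SC tumors (filled points; whiskers, SE) and in IPL tumors (open points). In SC tumors 18 of the 22 listed type I genes are called higher in AE17 and 16 of 18 GTPases in AB1, and the list medians in IPL tumors are -2.32 and -0.66 against -1.31 and 0.78 in SC tumors.

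The AIM2-like receptors, a cluster of DNA sensors on chromosome 1 that interferon induces, split within the family. Of 11 tested, 2 were higher in AB1 SC and 8 in AE17 SC (median -1.80). Ifi202b (chr1:173962568-173982744, minus strand), known to differ between mouse strains, ranged from 99.6 to 187 CPM in AB1 SC and from 0.726 to 3.45 CPM in AE17 SC (log2 fold change 6.13 ± 0.25, adjusted p = 1.11e-12). Aim2, the inflammasome sensor, ranged from 47.2 to 56.1 CPM and from 8.28 to 20.4 CPM. Ifi213, Ifi208 and Ifi205 had medians of 2.54, 6.14 and 46.4 CPM in AB1 SC and of 90.2, 62.2 and 323 CPM in AE17 SC. These neighbors are also close copies.

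Genes of antigen presentation by class I molecules were mostly higher in AB1 SC. Of 23 class I genes tested 19 were higher in AB1 SC and none in AE17 SC, with a median of 0.75. Without AE17 SC mice 6 and 8 the counts were 18 and 3. H2-Q2, a class Ib molecule, ranged from 212 to 282 CPM in AB1 SC and from 8.28 to 17.3 CPM in AE17 SC, and H2-Q10 from 188 to 262 and from 29.9 to 113 CPM. Reads of the H2 genes may be split among copies that differ between the strains. Psmb10, a subunit of the immunoproteasome that cuts peptides for class I and lies outside the H2 complex, ranged from 240 to 359 CPM and from 80.7 to 193 CPM (log2 fold change 1.29 ± 0.16, adjusted p = 1.40e-06).

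Of 11 class II genes tested, 5 were higher in AB1 SC and 3 in AE17 SC (3 and 1 with lane as a covariate). H2-Ea-ps, annotated as a polymorphic pseudogene since C57BL/6 mice do not express this chain, ranged from 494 to 1011 CPM in AB1 SC (median 770) and from 0 to 1.67 CPM in AE17 SC (log2 fold change 11.38 ± 0.45). The highest AE17 SC value was that of mouse 6. H2-DMb2, which loads peptide, was 163 ± 32.5 against 54.2 ± 18.2 CPM. Of 9 genes listed as known to differ between the strains, 2 were higher in AB1 SC (H2-Ea-ps and Ifi202b) and 4 in AE17 SC, among them Trim12a (4.79 ± 0.964 against 39.8 ± 11.4 CPM). Calls with lane as a covariate were 2 and 2.

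Of 13 T cell markers 6 were higher in AB1 SC and none in AE17 SC (median 0.78), and their summed level ranged from 180 to 364 CPM in AB1 SC and from 34.0 to 330 CPM in AE17 SC. Without AE17 SC mice 6 and 8 only 3 of the 13 passed, and with lane as a covariate 2. Trbc1, a constant segment of the T cell receptor, ranged from 28.8 to 64.8 CPM and from 3.26 to 42.3 CPM, and Lck, the kinase of that receptor, from 29.8 to 57.7 and from 4.05 to 42.8 CPM, with overlap. Cd3e did not pass (adjusted p = 0.0839 by edgeR).

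Of 9 CD8 and cytotoxic genes 4 were higher in AB1 SC and none in AE17 SC (2 and 0 with lane as a covariate). Eomes, a factor of effector T cells and NK cells, ranged from 10.7 to 21.5 CPM and from 3.70 to 10.1 CPM without overlap, while Nkg7, a granule protein, overlapped and lost its call with lane as a covariate (adjusted p = 0.0551). Of 10 CD4 and regulatory T cell genes, Icos and Il2ra were higher in AB1 SC and Tnfrsf4 and Ikzf2 in AE17 SC. Foxp3 and Cd4 were among the 6 others. Calls with lane as a covariate were 1 and 0.

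NK receptors differed in both directions. Of 21 tested, 9 were higher in AB1 SC and 4 in AE17 SC (5 and 3 with lane as a covariate). Ncr1, a receptor that marks NK cells, ranged from 16.6 to 45.5 CPM in AB1 SC and from 2.54 to 12.5 CPM in AE17 SC (log2 fold change 1.94 ± 0.26, adjusted p = 5.68e-06). Klra4 was nearly absent from AB1 SC, at 0.105 to 0.854 CPM, against 21.8 to 33.1 CPM in AE17 SC. Klra3 ranged from 4.04 to 11.6 CPM and from 0.544 to 2.92 CPM. The Klra genes are a multigene family whose number differs between strains, and reads may be split among its copies.

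Of 14 checkpoint receptors and ligands 5 were higher in AB1 SC and 4 in AE17 SC, or 3 and 4 without AE17 SC mice 6 and 8 and 2 and 3 with lane as a covariate. Pdcd1lg2, a ligand of PD-1, ranged from 19.9 to 70.4 CPM in AB1 SC and from 0.605 to 9.46 CPM in AE17 SC (log2 fold change 3.35 ± 0.41, adjusted p = 1.83e-06). Cd276 and Nt5e, the latter an enzyme that makes adenosine, were higher in AE17 SC at medians of 54.3 and 12.4 CPM against 148 and 36.4 CPM.

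Of 26 chemokines tested, 14 were higher in AB1 SC and 6 in AE17 SC, with a median of 0.73. Adding lane as a covariate left 8 and 1. Beyond the Cxcl9 group, Ccl8 ranged from 337 to 1266 CPM in AB1 SC and from 61.5 to 319 CPM in AE17 SC, and the membrane-bound Cx3cl1 from 112 to 159 and from 24.8 to 42.7 CPM. Cxcl13, which draws B cells, was 25.2 ± 11.5 against 3.74 ± 3.18 CPM. Cxcl3 was 2.65 ± 1.15 against 0.232 ± 0.232 CPM and lost its call with lane as a covariate (adjusted p = 0.557).

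Among 19 colony-stimulating factors and inflammatory cytokines, 10 were higher in AB1 SC and 3 in AE17 SC (6 and 2 with lane as a covariate). Tgfb2, a suppressor of immune cells and an inducer of matrix, ranged from 0.479 to 0.905 CPM in AB1 SC (median 0.713). In AE17 SC it ranged from 28.6 to 76.2 CPM (median 36.7, log2 fold change -5.93 ± 0.26). It passed the low-count filter through AE17 SC alone, so no adjusted p is given. Il18 ranged from 1.94 to 3.86 and from 13.2 to 34.8 CPM. Il1a, an alarm cytokine, went the other way, at 1.66 to 6.75 against 0.239 to 1.40 CPM.

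Cd68, a lysosomal protein of macrophages, was 155 ± 15.1 CPM in AB1 SC and 153 ± 20.3 CPM in AE17 SC (log2 fold change 0.02 ± 0.08, adjusted p = 0.838). Of 19 macrophage genes tested 7 were higher in AB1 SC and 3 in AE17 SC (3 and 1 with lane as a covariate), and the summed level of the list ranged from 3557 to 6152 CPM and from 2641 to 4680 CPM. The phosphatidylserine receptors Timd4 and Mertk differed in opposite directions, at medians of 7.75 against 1.14 CPM and of 19.1 against 47.4 CPM.

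Of 15 dendritic cell genes 7 were higher in AB1 SC and 3 in AE17 SC (3 and 2 with lane as a covariate). Xcr1, which marks cross-presenting dendritic cells, was 17.2 ± 2.76 against 6.77 ± 1.87 CPM, while Fscn1, an actin bundler that tumor cells also make, was 63.5 ± 7.98 against 276 ± 41.8 CPM. Of 12 mast cell and eosinophil genes, 5 were higher in AB1 SC and none in AE17 SC. The mast cell tryptase Tpsab1 ranged from 141 to 315 CPM in AB1 SC and from 5.17 to 23.9 CPM in AE17 SC, whereas the mast cell genes Cpa3 and Kit did not pass. Ccr3, the eotaxin receptor of eosinophils, was 3.50 ± 1.5 against 0.867 ± 0.332 CPM.

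B lineage markers did not move together. Cd79a, a chain of the B cell receptor, ranged from 8.02 to 11.7 CPM in AB1 SC and from 0.239 to 1.23 CPM in AE17 SC, while Pax5, the factor of B cell identity, ranged from 2.00 to 3.81 CPM and from 8.34 to 45.8 CPM. The B cell marker Ms4a1 was too low to test in either group, at a mean of 0.726 CPM in AB1 SC and of 0.374 CPM in AE17 SC. Jchain, which joins antibody units, was 7.19 ± 5.35 against 0.666 ± 0.437 CPM and lost its call with lane as a covariate (adjusted p = 0.0786). The 10 plasma cell and antibody genes tested had 5 higher in AB1 SC and 3 in AE17 SC (1 and 1 with lane as a covariate), and the summed level of the list was lower in AB1 SC, at 302 to 436 against 506 to 668 CPM. Sdc1, a proteoglycan of plasma cells and epithelium, was 85.4 ± 8.42 against 330 ± 27.8 CPM, a difference larger than that between the medians of the sum (345 and 536 CPM).

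**Figure D4:**
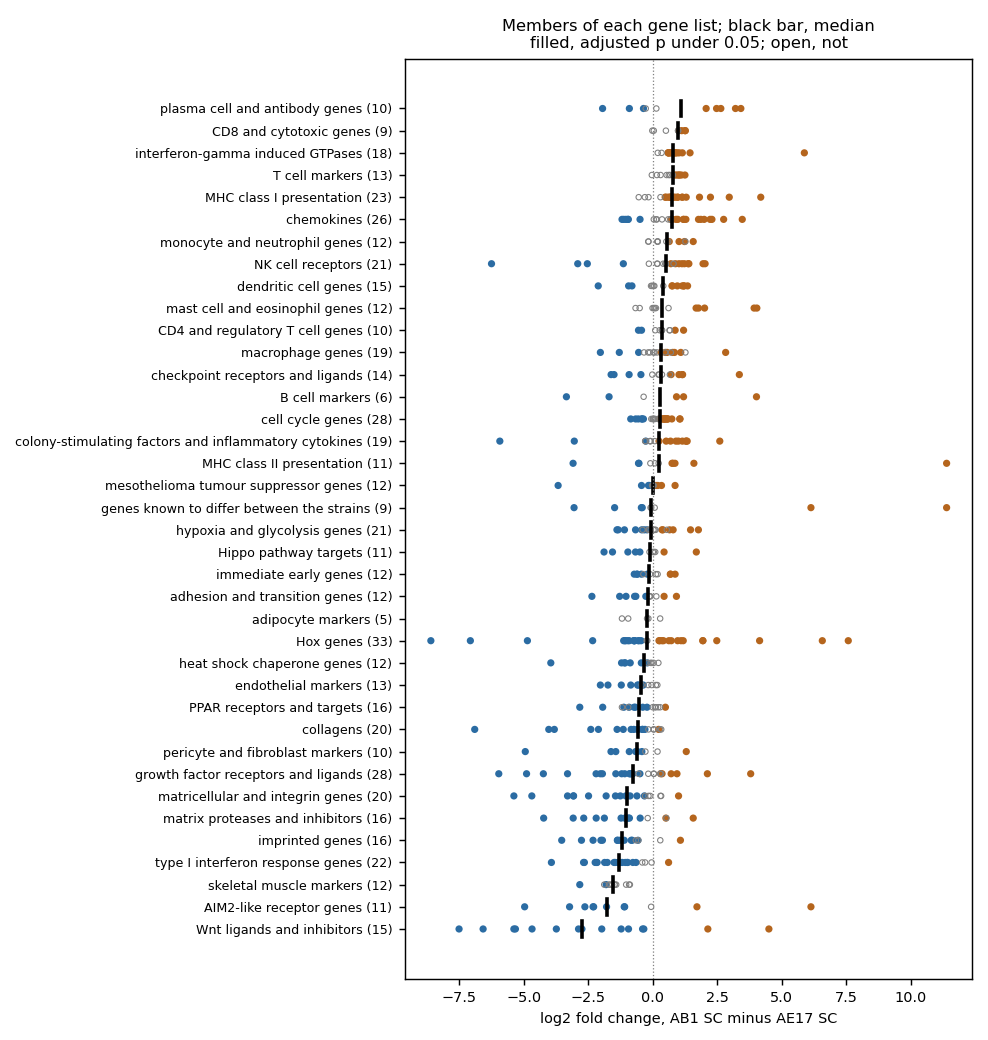
Log2 fold change (AB1 SC minus AE17 SC) of the tested members of each list with at least 5 tested genes (points; filled, adjusted p under 0.05, brown higher in AB1 SC and blue in AE17 SC; open, not called), with the number tested in brackets and the list median as a black bar. All genes tested have a median of -0.0027 (dotted line). The outermost medians, -2.75 for Wnt genes and 1.10 for plasma cell and antibody genes, become -0.67 and -0.28 among members with at least 10 counts in every mouse.

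Of 12 mesothelioma tumor suppressor genes 4 were higher in AB1 SC and 4 in AE17 SC (2 and 1 with lane as a covariate). Cdkn2a (chr4:89274471-89294653, minus strand), which encodes p16 and p19ARF, was too low to test in either group, at 0.101 to 0.503 CPM in AB1 SC and 0.409 to 1.08 CPM in AE17 SC. Its neighbor Mtap (chr4:89137122-89181081, plus strand), an enzyme of methionine salvage, ranged from 6.68 to 10.2 CPM in AB1 SC (median 8.32) and from 86.4 to 134 CPM in AE17 SC (median 108; log2 fold change -3.67 ± 0.10, adjusted p = 3.90e-15). Klhl9, further along, was 45.9 ± 3.65 against 121 ± 11.8 CPM. On the far side of Cdkn2a, Dmrta1 and Elavl2 were higher in AB1 SC, at 2.78 ± 0.473 and 3.85 ± 0.857 against 0.150 ± 0.130 and 0.219 ± 0.150 CPM, but lost their calls with lane as a covariate (adjusted p = 0.658 and 0.208). Rb1, the retinoblastoma gene, was 44.0 ± 3.62 against 24.3 ± 2.18 CPM.

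Of 28 cell cycle genes 15 were higher in AB1 SC and 6 in AE17 SC (median 0.27), or 5 and 3 with lane as a covariate. Mki67, which marks dividing cells, ranged from 629 to 919 CPM in AB1 SC and from 213 to 560 CPM in AE17 SC, though it did not pass with lane as a covariate (adjusted p = 0.197). The D cyclins were divided, with Ccnd1 at medians of 774 against 365 CPM and Ccnd2 at 120 against 215 CPM.

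Of 16 imprinted genes tested, which are read from 1 parental copy, 1 was higher in AB1 SC and 12 in AE17 SC (median -1.20), or 0 and 6 with lane as a covariate. Mest ranged from 8.82 to 17.9 CPM in AB1 SC and from 53.0 to 361 CPM in AE17 SC, and the long RNA Kcnq1ot1 from 0.807 to 2.07 and from 4.66 to 9.08 CPM. H19 overlapped (10.7 ± 7.10 against 43.4 ± 30.1 CPM) and did not pass with lane as a covariate (adjusted p = 0.225) or with the replicate number as a block. Peg3, the member higher in AB1 SC, lost its call with lane, with limma-voom and in 1 fit of all 32 mice.

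Of 12 heat shock genes none was higher in AB1 SC and 7 were higher in AE17 SC (median -0.33), led by Hspb1 at 0.958 to 13.6 CPM against 25.9 to 186 CPM. Among 16 PPAR receptors and targets, 1 was higher in AB1 SC and 8 in AE17 SC (median -0.54). That median was -0.23 among members with at least 10 counts in every mouse, and -0.85 over the 16 with lane as a covariate. Pdk4, the brake of pyruvate oxidation, was 1.22 ± 0.928 against 8.73 ± 3.28 CPM. Pdk4 overlapped between the groups. Of 16 adhesion and transition genes with values, 12 were tested, of which 2 were higher in AB1 SC and 6 in AE17 SC. Hypoxia and glycolysis genes (6 and 7 of 21), Hippo pathway targets (2 and 5 of 11), immediate early genes (3 and 5 of 12) and monocyte and neutrophil genes (4 and 0 of 12) were called in AB1 SC and AE17 SC in that order. Adding lane as a covariate lowered the calls to 3 and 1 for hypoxia, 1 and 4 for Hippo, 1 and 0 for immediate early and 2 and 0 for monocyte and neutrophil genes. They fell to 0 and 4 for heat shock, 0 and 6 for PPAR and 0 and 3 for adhesion genes.

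Tissue around the tumor was measured by 3 marker lists. The summed level of 12 skeletal muscle markers ranged from 55.5 to 558 CPM in AB1 SC and from 46.8 to 1632 CPM in AE17 SC, highest in AE17 SC mouse 6. None was higher in AB1 SC and 2 were higher in AE17 SC, one of which, Pvalb, ranged from 0 to 46.9 CPM in AE17 SC and lost its call without mouse 6 (adjusted p = 0.0580). Without AE17 SC mice 6 and 8, and with lane as a covariate, none of the 12 was called. None of 5 adipocyte markers tested was called. The summed level of 10 epidermal markers was 1.38 to 3.29 CPM in AB1 SC and 3.27 to 29.7 CPM in AE17 SC, with AE17 SC mouse 6 again highest, and 1 of the 2 tested was higher in AE17 SC.

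Line differences also ran along chromosomes. Of 332 tested protein-coding genes of chromosome 16, 9.04% were higher in AB1 SC and 71.4% in AE17 SC, with a median log2 fold change of -0.53. Chromosomes 4 and 13 had medians of -0.29 and -0.26, with 54.4% and 50.2% of genes higher in AE17 SC, and chromosomes 7 and 8 had medians of 0.17 and 0.16, with 45.8% and 47.6% higher in AB1 SC. The medians of IPL tumors were -0.59 for chromosome 16, -0.27 for 4, -0.25 for 13, 0.20 for 7 and 0.24 for 8. The values cover 495 of 664 annotated protein-coding genes of chromosome 16 and 509 of 838 of chromosome 13, and the rest were not analysed here. Coverage was also partial on chromosomes 10, 12, 14, 15, 18 and 19, and on 17, with 701 of 1056 genes.

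In 380 windows of 30 consecutive tested protein-coding genes, 24 had a median over 0.5 in size, 8 of them positive and 16 negative. Of the negative windows 8 were on chromosome 16, where all 11 windows had a median below 0, and 4 were on chromosome 4. The lowest window, at -1.39, lay on chromosome 13 (chr13:21782960-24831540), with 2 genes higher in AB1 SC and 23 in AE17 SC. It spans histone genes, and its genes with the highest mean CPM were BC005537, Hist1h1c, Hfe, Gmnn and Zfp322a. The highest window, at 0.74, was chr17:35972541-44086567 in and beyond the H2 complex, with 21 and 3 genes and with H2-T23 and H2-T22 highest in mean CPM. Neighboring genes are not independent, and DNA was not measured.

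**Figure D5:**
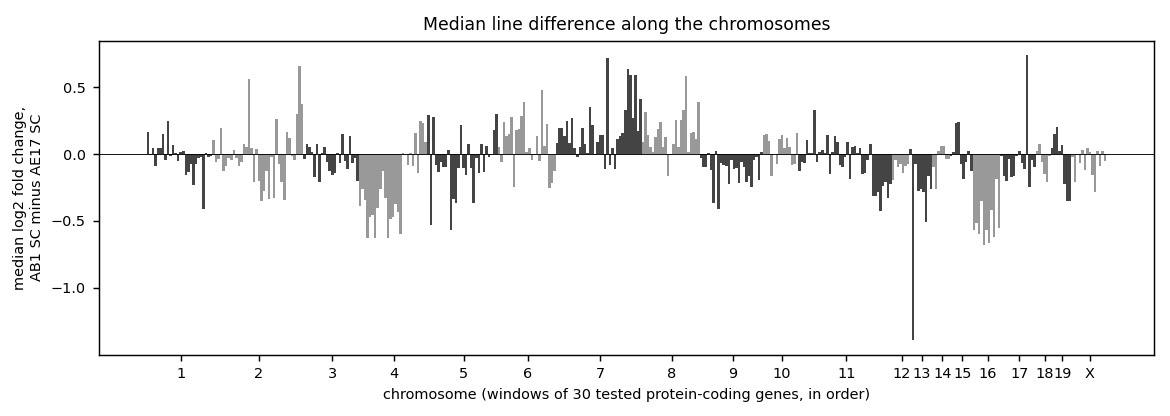
Median log2 fold change (AB1 SC minus AE17 SC) of successive windows of 30 tested protein-coding genes (bars), by chromosome. All 11 windows of chromosome 16 lie below 0, long runs of chromosome 4 lie below 0 and of chromosome 7 above, and the lowest bar, at -1.39, is on chromosome 13.

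To ask whether these differences depended on the site, the line difference in SC tumors was set against that in IPL tumors in 1 fit of all 32 mice. Of 15681 genes 3212 differed between the sites in their line difference (20.5%), 1352 of them shifted towards AB1 in SC tumors (8.62%) and 1860 towards AE17 (11.9%). Of the 9370 genes called in SC tumors 2068 were among them, and for 693 of these 2068 the line difference had the opposite sign in IPL tumors. With lane as a covariate only 117 genes passed, and 2594 had an unadjusted p under 0.05.

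The interferon genes were shifted towards AB1 in SC tumors. The interaction passed for 21 of 22 type I genes, 18 of 18 GTPases and 22 of 23 class I genes, and the list medians were -2.32, -0.66 and -0.10 in IPL tumors against -1.31, 0.78 and 0.75 in SC tumors. For T cell markers 12 of 13 passed (median -0.97 in IPL and 0.78 in SC tumors), a list median of opposite sign at the 2 sites. With lane as a covariate the interaction passed for 0 type I genes, 0 GTPases, 1 class I gene and 0 T cell markers.

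Collagens moved the other way, with medians of 0.22 in IPL and -0.58 in SC tumors and an interaction for 12 of 20 genes, or 1 of 20 with lane as a covariate. Among the 5 largest interactions in this direction, Fmod, a proteoglycan that binds collagen fibrils, ranged from 0.0591 to 0.288 CPM in AB1 SC and from 23.2 to 151 CPM in AE17 SC (line difference -8.67 in SC and -1.05 in IPL tumors). The red cell band 3 gene Slc4a1 and the muscle genes Igfn1, Pvalb and Ckmt2 were the other 4. The 5 largest in the other direction were the ribosomal gene copies Rps3a2, Rps3a3 and Rpl30-ps10 and the predicted genes Gm5879 and Gm12435, whose values jumped between mice of a group. Rpl30-ps10, for example, was 273 CPM in AB1 SC mouse 2 and at most 7.10 CPM in the other 7. Such copies may share reads with their parent genes, which was not tested, and these values are uncertain.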

How the data were processed

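Values are raw gene-level counts as deposited by the authors, who demultiplexed 50 bp reads with bcl2fastq 1.8.4, aligned them by HISAT2 2.0.4 and counted genes by SummerizeOverlaps. Mapping to a reference based on C57BL/6 may lose or misplace reads of BALB/c origin, most in H2, Klra, Gbp and Ifi20x genes, and this was not tested. Of 39676 identifiers, 39495 matched GENCODE M21 on GRCm38, which gave positions and gene types. The methods call the genome by another name. Promoter sequences are from RefSeq (GRCm38.p6).

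AB1 SC and AE17 SC were compared in R 4.3.3 with edgeR 4.0.16 (low counts removed by filterByExpr, scaling by TMM, quasi-likelihood F test with robust fits, p-values adjusted by Benjamini-Hochberg). Alternatives were DESeq2 1.42.0, the tool of the study, limma 3.58.1 (voom with quality weights), other scalings and filters, lane and replicate number as covariates, and leaving out mice. Leaving out AE17 SC mice 6 and 8 was chosen after seeing the data. On simulated data for this comparison, with 14576 genes of which 200 were changed, edgeR recovered 72% of 1.5-fold, 88% of 2-fold and 100% of 4-fold changes, with 7 false calls. The changed genes were drawn above a minimum mean level, and no lane effect or mouse set apart was simulated. In the real comparison most genes were called and lane differed with line, so these rates may not carry over to it.

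The 42 gene lists hold 767 entries, of which 684 had values and 604 were tested. Members and lists were chosen with earlier results of these data known. Genes named are the 10 with the largest fold change in each direction (protein-coding, at least 5 CPM, no overlap), up to 6 members per list by size of change, the 5 largest interactions in each direction and up to 5 abundant genes per window. Dkk3, Hoxd9, Col4a2, Adamts1, Spp1, Aim2, Cxcl10, Cdkn2a, Ms4a1, Cd68, Cd3e, Pecam1, Klhl9, Dmrta1, Elavl2 and Peg3 were singled out after their values were seen, some as the lone member on their side. A few list members counted are not reported here by name. Plots were drawn with matplotlib 3.10.9.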

Additional observations from a re-analysis of the deposited data

Results flagged for a closer look

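Dixon's criterion by chance flags about 1 in 20 groups of independent, normally spread values. Here the genes share the same mice, and some groups hold 1 count among zeros, so that rate does not apply. In 280 groups of 8 mice (140 genes in both SC groups), 23 had a highest mouse set apart from the others by this criterion. AE17 SC mouse 6 was that mouse for Cdhr5 (3.88 CPM), Baiap2l1 (19.2 CPM), Stmn2 (3.28 CPM), Ifi44l (0.537 CPM), Unc13c (0.537 CPM), Ndst4 (0.179 CPM) and H2-Ea-ps (1.67 CPM), all of them genes far higher in AB1 SC. It was also highest for Notum (30.4 CPM), Col6a3 (3133 CPM), Adamts1 (101 CPM) and Pvalb (46.9 CPM). AE17 SC mouse 8 was highest for Fgfr1 (384 CPM), Wnt11 (11.7 CPM), Hoxd10 (3.69 CPM) and Fmod (151 CPM), and AE17 SC mouse 1 for Vegfc (15.8 CPM). In AB1 SC, mouse 6 was highest for Adamts1 (164 CPM), Postn (369 CPM) and Hoxb13 (0.0587 CPM, 1 count). AB1 SC mouse 3 was highest for Xist (3.84 CPM), mouse 2 for Rpl30-ps10 (273 CPM), mouse 4 for Rgs17 (0.0580 CPM, 1 count) and mouse 1 for Notum (0.0525 CPM, 1 count).

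The line difference was not the same at the 2 sites for 64 of the 140 genes, by edgeR's interaction term at an adjusted p under 0.05. Over all 15681 genes tested the share was 20.5%. The 140 include genes chosen for a large interaction, such as Fmod, Pvalb, Rps3a2 and Rpl30-ps10, so the 2 shares are not compared. The interaction is given in brackets as log2 of the AB1 to AE17 difference in SC tumors minus that in IPL tumors. It was positive for the interferon and sensor genes Ifit3b (0.98), Ifit3 (1.09), Ifit1 (1.10), Oasl1 (1.15), Rsad2 (1.17), Mx1 (1.40), Ifi205 (1.25), Ifi202b (1.44), Ifi213 (1.94) and Ifi208 (2.08). Among the GTPases it was positive for Gbp10 (1.44), Gbp11 (1.69), Gbp8 (1.74), Gbp5 (1.77), Gbp4 (1.79) and Gbp2b (2.06). Antigen presentation genes with a positive value were H2-Q2 (0.61), H2-Q1 (0.76), H2-Q10 (0.94), H2-T3 (1.29), H2-DMb2 (1.09) and Psmb10 (1.05). So were the chemokines and cytokines Ccl8 (1.19), Cxcl10 (1.76), Cxcl9 (1.78), Cxcl11 (2.17), Cxcl3 (2.81) and Il1a (2.98), and the lymphocyte genes Lck (1.36), Eomes (1.52), Trbc1 (1.99), Klra4 (2.15), Nkg7 (2.34) and Cd79a (3.21), and the PD-1 ligand gene Pdcd1lg2 (3.10). It was negative for the matrix and stromal genes Fmod (-7.61), Cspg4 (-3.91), Mmp13 (-3.70), Itga11 (-2.28), Col11a1 (-1.58), Col6a3 (-1.56), Mmp2 (-1.36), Col1a1 (-1.31) and Erg (-1.02), for the signaling and patterning genes Notum (-3.98), Wnt5b (-3.06), Wnt5a (-1.57), Fgfr2 (-1.70), Tgfb2 (-2.45), Hoxd10 (-2.87), Hoxd9 (-2.25) and Rflna (-2.98), and for Pvalb (-5.83), Pdk4 (-4.03), H19 (-3.36) and Hspb1 (-1.70). Values above 0 were also found for Xist (2.34), Eif2s3y (1.05), Tcp11x2 (1.89), Mmp10 (1.89), Timp3 (0.62), Kcnq1ot1 (1.44), Rps3a2 (7.43) and Rpl30-ps10 (9.79). With lane as a covariate, 117 interactions passed over all genes in place of 3212.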

How the results depend on the processing

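Of the 140 genes described, many of them chosen for the size of their difference, 122 kept their direction and their side of the threshold. This holds over the alternatives in which a gene was tested. Leaving out 1 mouse at a time gave 9084 to 9663 genes differing and 2636 to 2711 at least 2-fold. Genes at least 2-fold apart numbered 4413 by DESeq2 without the low-count filter (28481 genes tested; 1869 higher in AB1 SC, 2544 in AE17 SC), 4954 by edgeR without a filter (2130 and 2824), 1607 with at least 10 counts in every mouse (666 and 941, fewer genes being tested) and 1676 by glmTreat against a 2-fold change. Lane as a covariate, which is estimated outside the AE17 SC group, gave 5268 genes (2418 and 2850), 117 interactions and changed calls for 18 of the genes described, and it turned Rps3a2 from 8.75 to -1.43. The cause was not tested.

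In the fit with lane, which tested 15681 genes and so also other members, list medians that moved were those of adhesion genes (-0.46), tumor suppressors (-0.16), growth factor genes (-0.91), endothelial (-0.73), adipocyte (-4.67) and B cell markers (1.07) and immediate early genes (0.010). Over the members tested in SC tumors alone, the medians with lane were -0.39 for adhesion genes, 0.55 for B cell markers and -2.90 for the 3 mesothelial lineage genes (-0.90 without lane). Without a filter they were -0.55 for adhesion genes, -2.82 for epidermal and 0.89 for B cell markers and -2.30 for Wnt genes. With at least 10 counts they were -0.46 for Hox genes, -1.19 for epidermal, -0.36 for B cell and -0.28 for plasma cell genes and -0.67 for Wnt genes. Scaling by total counts gave a median of 0.065 over all genes, against -0.0027, and 5308 genes higher in AB1 SC and 4166 in AE17 SC. Chromosome medians were then 0.039 (2), 0.021 (3), -0.23 (4), 0.010 (5), 0.23 (8), -0.040 (9), 0.12 (10), 0.013 (11), -0.0350 (12), -0.19 (13) and 0.058 (18). Chromosome 8 was 0.11 with lane, and chromosome 18 was -0.12 without a filter and -0.088 with lane.

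Shared replicate numbers did not pair the mice: the mean correlation of deviations was -0.13 for equal numbers and 0.02 for others, 2 of 8 pairs were above 0.1, and 1 AB1 SC mouse was closest to its own number. With the number as a replicate block 8847 genes passed, and calls changed for 3 of the genes described (H19, Pvalb and Rpl30-ps10).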
